A study of Mus musculus with 6 samples.

Results

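The 4 Janus kinase genes, Jak1, Jak2, Jak3 and Tyk2, and the 5 signal transducer genes Stat3, Stat4, Stat5a, Stat5b and Stat6 were followed in mouse regulatory T cells (Treg cells). They were taken by symbol from the deposited count table, 9 of 23992 gene symbols, with the transcript row of the highest total kept for each symbol. All 9 passed the filter on low counts and were among the 12720 genes tested. RNA was sequenced from 3 libraries labelled KO, of CD45.2 Foxp3YFP-Cre/Y Crlf2fl/fl mice, and 3 labelled WT, of CD45.2 Foxp3YFP-Cre/Y mice. Both groups carry the Foxp3YFP-Cre allele, so Cre is made in Foxp3-expressing cells of KO and of WT mice alike, and the floxed Crlf2 allele is what the KO group has in addition. Crlf2 is the gene of the chain that makes a receptor bind the cytokine TSLP. Cells were sorted as live CD4+YFP+ from pooled lymph nodes and spleen, and age is not given in the labels. Whether each replicate was a separate animal is not stated in the labels, and the p-values therefore cover the spread between these libraries alone, which may be technical. Going by the series title, the study asked whether TSLP signalling in Treg cells maintains their identity.

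Cytokine receptors of this class have no kinase of their own. Janus kinases bound to their tails phosphorylate the receptor after the cytokine has joined the chains, STAT proteins dock there, are phosphorylated in turn, pair up and move to the nucleus to switch on target genes. The TSLP receptor pairs CRLF2, which binds JAK2, with the IL-7 receptor alpha chain, which binds JAK1, and it signals mainly through STAT5; in Treg cells IL-2 signals through JAK1, JAK3 and STAT5, which Foxp3 expression depends on. The activity of these proteins is set largely by phosphorylation, which transcript counts do not show.

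Library totals ran from 9649601 to 18352401 reads in KO and from 1439736 to 12180569 reads in WT, where replicate 2 was the shallowest by far. CPM, used below, are reads scaled to library size with TMM factors. The upper limit for an unseen transcript, 3 reads, corresponds to 0.157 to 0.292 CPM in KO, and in WT to 0.284 to 0.401 CPM except in replicate 2, where it is 2.05 CPM. All values of the 9 genes lie above these floors. Crlf2 averaged 6.44 ± 2.76 CPM in KO and 115 ± 27.7 CPM in WT libraries (SD, n = 3 each; log2 fold change -4.16, adjusted p = 0.0047 by edgeR's quasi-likelihood test), which goes with the titles and the genotype tags, although the description of each sample names the other strain. The tissue is labelled spleen and lymph node, whereas the deposited table's own title names lung. Marker sums differed among libraries. The 10 Treg and pan-T markers took 0.538% to 0.561% of reads in KO and 0.257% to 0.506% in WT, lowest in WT replicate 3. The 12 lung epithelial markers took 0.245% to 1.97% in KO and 1.71% to 7.60% in WT, highest in WT replicate 1, and all 12 had a lower mean in KO. The 8 erythroid markers found in the table took 0.133% to 0.195% in KO and 0.117% to 9.89% in WT, highest in WT replicate 3. Macrophage and monocyte markers took 0.108% to 0.112% in KO and 0.0297% to 0.390% in WT. No marker in these lists was at 0 in all 6 libraries. In such bulk samples, fewer cells of a type and less RNA per cell cannot be told apart.

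Stat5a and Stat5b need their sequences shown first, because the split of reads between them is uncertain. Both lie on mouse chromosome 11, Stat5a at chr11:100859351-100885169 on the plus strand and Stat5b at chr11:100780731-100859004 on the minus strand (GRCm38, protein coding), head to head with 346 bases between them. Their coding sequences were identical at 2125 of 2343 aligned bases (90.7%), whereas the other pairs within the JAK or the STAT family had 49.8% to 60.3% identity. The longest coding stretch they share base for base is 324 bases, coding bases 571 to 894 of both. Its exons span chr11:100874023-100874983 in Stat5a and chr11:100797741-100798701 in Stat5b, introns included. A read that lies inside it cannot be given to either gene by its sequence. Its first 120 bases, coding bases 571 to 690, are shown once, 5′ to 3′ in the coding sense, from the GENCODE transcripts of GRCm38.
Stat5a and Stat5b, shared: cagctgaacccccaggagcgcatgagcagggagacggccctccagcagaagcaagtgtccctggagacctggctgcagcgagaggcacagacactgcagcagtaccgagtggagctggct
The 60-base coding window in which the pair is least alike, coding bases 85 to 144, shows where reads can be told apart. Its exons span chr11:100861422-100861736 in Stat5a and chr11:100805011-100808439 in Stat5b. Capitals mark the 19 bases that differ, and 41 are identical.
Stat5a: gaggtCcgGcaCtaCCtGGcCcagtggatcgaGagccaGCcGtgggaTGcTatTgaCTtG
Stat5b: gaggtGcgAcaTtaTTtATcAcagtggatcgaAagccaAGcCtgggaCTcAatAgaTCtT
Over the whole transcripts, 608 windows of 50 bases occurred in both genes, 15.8% of the windows of Stat5a and 12.1% of those of Stat5b. At 100 bases, 265 windows were shared, 6.99% of Stat5a's and 5.34% of Stat5b's. No other pair among the 9 genes shared a window of 50 bases, comparing the kept transcripts in the coding sense. How reads that fit both places were counted is not given in the sources used here, so every value of Stat5a or Stat5b alone carries that uncertainty, and their summed test is given beside their own.

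Among the kinases, Jak1, Jak3 and Tyk2 had higher values in every KO library than in any WT library under TMM scaling, and Jak2 had a lower mean in KO with overlapping groups. No difference passed the test. Jak1 (chr4:101151974-101265282, minus strand), the kinase shared by most of these receptors, had 626, 609 and 608 CPM in KO replicates 1 to 3, against 485, 565 and 574 CPM in WT replicates 1 to 3. The KO libraries lay within a narrow band and WT replicate 1 stood lowest. The log2 fold change, KO over WT, was 0.18 (SE 0.11, adjusted p = 0.451 by edgeR). Jak3 (chr8:71676383-71690577, plus strand) pairs with the common gamma chain of the IL-2, IL-4, IL-7 and related receptors. It had 695, 661 and 666 CPM in KO replicates 1 to 3, against 639, 420 and 337 CPM in WT replicates 1 to 3. The KO libraries were alike, with a coefficient of variation of 2.74%, while the WT libraries were spread over 33.5% and WT replicate 1 came close to KO. Its log2 fold change of 0.53 was the largest of the 9 (SE 0.21, 95% interval 0.05 to 1.02, adjusted p = 0.273). WT replicate 3, which held the least Jak3, is also the library with the least Treg and pan-T markers and the most erythroid markers. Without it the log2 fold change was 0.35 (adjusted p = 0.296), and without WT replicate 1 it was 0.84 (adjusted p = 0.0606).

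Tyk2 (chr9:21104068-21131393, minus strand) serves the receptors for type I interferon, IL-12, IL-23 and IL-10. It had 179, 191 and 161 CPM in KO replicates 1 to 3, against 127, 152 and 112 CPM in WT replicates 1 to 3. The lowest KO library exceeded the highest WT library by a small margin. Its mean was 177 ± 14.9 CPM in KO and 130.1 ± 20.2 CPM in WT libraries (SD, n = 3 each). With a log2 fold change of 0.45 (SE 0.15, 95% interval 0.11 to 0.79), Tyk2 had the smallest p of the 9 genes, 0.0155 before and 0.185 after adjustment over all genes. Jak2 (chr19:29251803-29313095, plus strand), the kinase of CRLF2 and of receptors such as those for interferon gamma, had 34.5, 42.5 and 27.5 CPM in KO replicates 1 to 3, against 42.5, 56.8 and 39.3 CPM in WT replicates 1 to 3. KO replicate 2 reached the level of WT replicate 1, so the groups overlapped. The highest value rests on 83 reads of the shallow WT replicate 2, with an exact Poisson 95% interval of 45.2 to 70.4 CPM that covers counting error only. The log2 fold change was -0.39 (SE 0.23, adjusted p = 0.461).

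**Figure D1:**
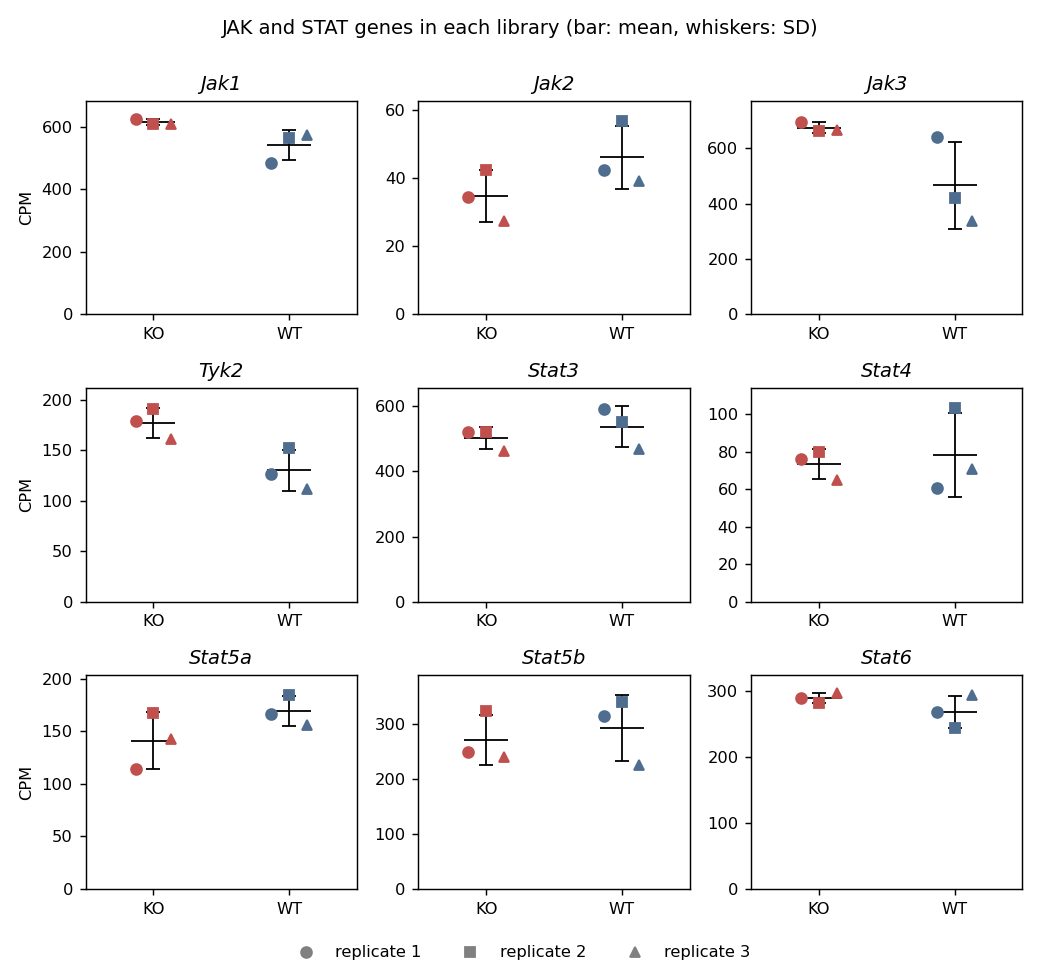
CPM of each of the 9 genes in each library (vertical axis, starting at 0), KO left of WT, with marker shapes for replicates 1 to 3, a bar at the mean and whiskers of 1 SD. Jak1, Jak3 and Tyk2 are separated between the groups, Jak3 ranges from 337 to 639 CPM within WT, and the STAT genes overlap.

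For all 5 STAT genes the KO and WT libraries overlapped. Stat3 (chr11:100886806-100939594, minus strand), activated by IL-6, IL-10 and IL-21, had 522, 521 and 462 CPM in KO replicates 1 to 3, against 592, 553 and 468 CPM in WT replicates 1 to 3. Replicate 3 was lowest in both groups, and the log2 fold change was -0.10 (SE 0.12, adjusted p = 0.748). Stat4 (chr1:51987106-52107189, plus strand), which transmits IL-12 signals, had 75.9, 80.0 and 64.7 CPM in KO replicates 1 to 3, against 60.8, 103 and 70.7 CPM in WT replicates 1 to 3. WT held both the highest and the lowest library. That highest value comes from 151 reads in the shallow WT replicate 2 (exact Poisson 95% interval 87.5 to 121 CPM), and the log2 fold change of -0.07 (SE 0.21, adjusted p = 0.910) was 0.18 without that library. Stat6 (chr10:127642955-127660987, plus strand), the transducer of IL-4 and IL-13, had 290.4, 282 and 298 CPM in KO replicates 1 to 3, against 269, 245 and 294 CPM in WT replicates 1 to 3. It varied least of the 9 genes, by 1.22-fold from the lowest to the highest library, and its log2 fold change was 0.11 (SE 0.11, adjusted p = 0.707).

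The STAT5 pair carries IL-2, IL-7 and TSLP signals. Stat5a had 114, 167 and 142 CPM in KO replicates 1 to 3, against 167, 185 and 156 CPM in WT replicates 1 to 3. KO replicate 1 was the lowest library and KO replicate 2 reached the WT range, with a log2 fold change of -0.26 (SE 0.16, adjusted p = 0.503). Stat5b had 249, 324 and 241 CPM in KO replicates 1 to 3, against 315, 341 and 225 CPM in WT replicates 1 to 3. The lowest Stat5b value was in WT replicate 3, and the log2 fold change was -0.11 (SE 0.19, adjusted p = 0.829). Summed, so that a read given to either gene counts alike, Stat5a and Stat5b had 363, 492 and 383 CPM in KO replicates 1 to 3, against 482, 526 and 381 CPM in WT replicates 1 to 3. Reads counted at both genes would be overcounted in the sum, and dropped reads would be missing from it. The sums overlapped as well, and their log2 fold change was -0.16 (SE 0.16, adjusted p = 0.685). The ratio of Stat5b to Stat5a per transcript length was 1.73, 1.53 and 1.34 in KO replicates 1 to 3, against 1.49, 1.46 and 1.14 in WT replicates 1 to 3 (exact permutation test, two-sided, p = 0.4). Replicate 3 again had the lowest ratio in both groups.

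As a set, 0 of the 9 genes passed the test at an adjusted p under 0.05 (edgeR), and DESeq2 and limma-voom also called 0. Over all genes tested, 1.74% passed it. At an unadjusted p under 0.05, 2 of the 9 passed, Jak3 and Tyk2, against a background of 15.9% of all genes. In 3 of the 9, the kinases Jak1, Jak3 and Tyk2, no KO library fell within the WT range, and all 3 had KO higher. Over all genes 22.0% did not overlap, 10.4% with KO higher and 11.5% with KO lower. The median log2 fold change was 0.32 over the 4 kinases, -0.10 over the 5 STAT genes and -0.04 over all genes tested. By size of change the kinases and Stat5a lay in the middle of the table: 70.0% of tested genes had a smaller absolute log2 fold change than Jak3, 64.6% than Tyk2, 59.5% than Jak2, 44.5% than Stat5a and 33.3% than Jak1. For Stat5b, Stat6, Stat3 and Stat4 that share was 13.2% to 20.4%. Under TMM scaling, the 95% intervals ran from 0.96-fold to 1.34-fold for Jak1 and from 0.77-fold to 1.13-fold for Stat3. They ran from 0.90-fold to 1.29-fold for Stat6 and from 0.53-fold to 1.10-fold for Jak2. These intervals do not cover the choice of scaling. Scaled to pan-T genes, Jak1 (log2 fold change -0.12) and Stat6 (-0.20) fell below their lower ends, -0.06 and -0.15 in log2.

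**Figure D2:**
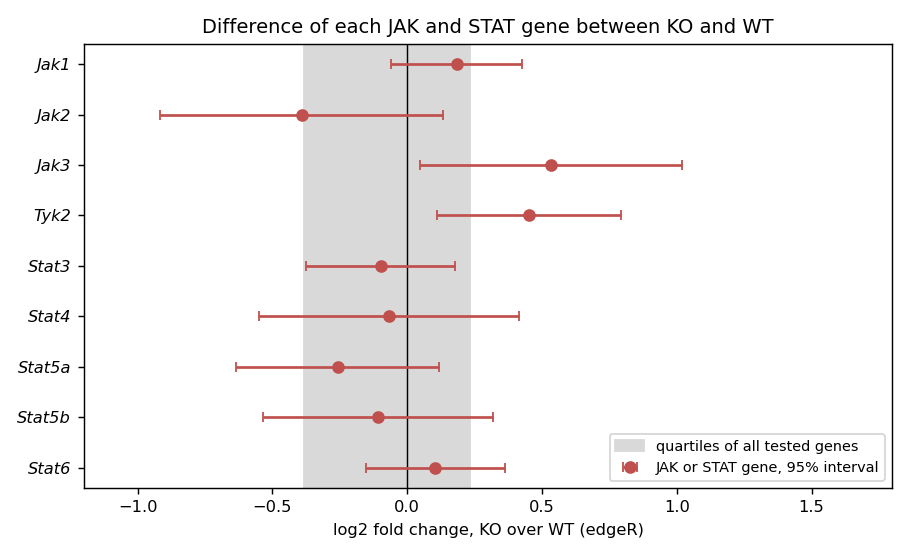
Log2 fold change of each gene, KO over WT, from edgeR (points) with its 95% interval (bars), beside the range from -0.38 to 0.23 between the quartiles of all 12720 tested genes (grey). The intervals of Jak3 and Tyk2 lie above 0 and those of the other genes include it.

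Per transcript length (RPKM, CPM divided by the deposited transcript length in kilobases), the kinase of the common gamma chain stood at or near the top and the kinase of CRLF2 at the bottom in both groups. In KO libraries the order of mean levels was Jak3 (171 ± 4.70 RPKM), Jak1 (116 ± 1.91), Stat3 (112 ± 7.64), Stat6 (76.2 ± 2.11), Stat5b (55.2 ± 9.30), Tyk2 (36.3 ± 3.06), Stat5a (36.3 ± 6.89), Stat4 (24.7 ± 2.67) and Jak2 (6.89 ± 1.49; SD, n = 3). The neighbours Jak1 and Stat3, and Tyk2 and Stat5a, overlapped between libraries, and the other neighbours did not. In WT libraries the order was Stat3 (120 ± 14.1 RPKM), Jak3 (118 ± 39.7), Jak1 (102 ± 9.22), Stat6 (70.7 ± 6.44), Stat5b (59.6 ± 12.3), Stat5a (43.5 ± 3.75), Tyk2 (26.7 ± 4.15), Stat4 (26.3 ± 7.46) and Jak2 (9.14 ± 1.85; SD, n = 3). There Stat3 and Jak3, Jak3 and Jak1, Stat6 and Stat5b, Stat5b and Stat5a, and Tyk2 and Stat4 overlapped. Jak3 led without overlap in KO and overlapped Stat3 and Jak1 in WT, and the difference between the orders was not tested. Against all tested genes, the level of Jak3 stood at the 96.0th percentile in KO and the 93.9th in WT, and that of Jak2 at the 45.6th in KO and the 50.8th in WT.

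**Figure D3:**
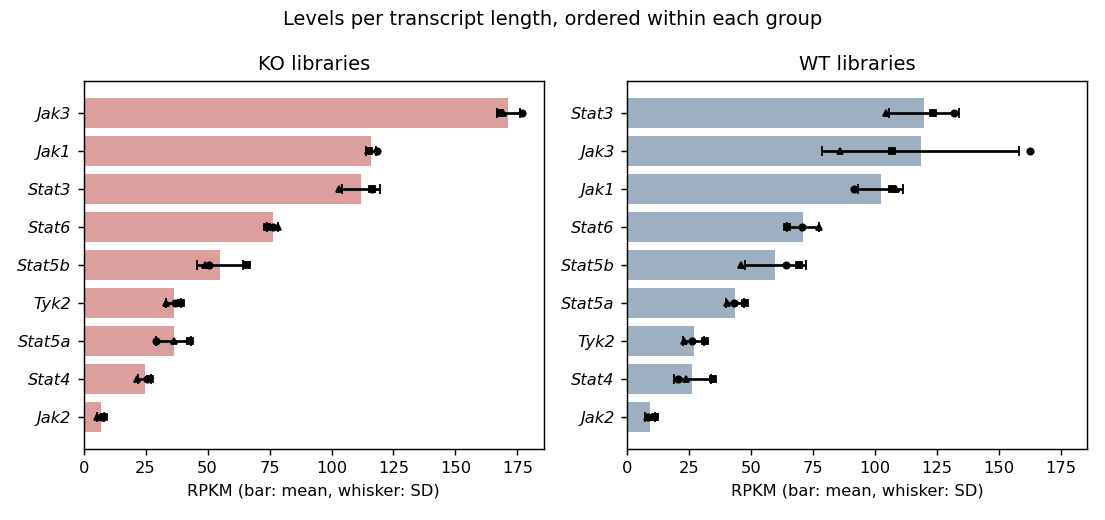
RPKM of the 9 genes in KO libraries (left) and WT libraries (right), each ordered by its own mean, with bars at the mean, whiskers of 1 SD and the libraries as circles, squares and triangles for replicates 1 to 3. Jak3 leads in KO at 171 RPKM with a whisker of 4.70, and Jak2 is last in both groups.

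Summed over the 4 kinases, the level per length was 338, 331 and 323 RPKM in KO replicates 1 to 3, against 288, 256 and 225 RPKM in WT replicates 1 to 3. Every KO library exceeded every WT library, with means of 331 ± 7.87 RPKM in KO and 256 ± 31.9 RPKM in WT (SD, n = 3 each). The exact permutation test, two-sided, gave p = 0.1, the smallest that 3 against 3 libraries allow. The summed share of Treg and pan-T markers was likewise higher in every KO library, 0.538% to 0.561%, against 0.257% to 0.506% in WT. WT replicate 3 was lowest in this share and in the kinase sum. Ctla4, Cd4, Cd3e, Cd3d and Cd3g were higher in every KO library than in any WT library. Foxp3, Ikzf2, Il2ra, Cd2 and Cd5 overlapped. Ikzf2 had 208, 225 and 190 CPM in KO replicates 1 to 3, against 240, 265 and 101 CPM in WT replicates 1 to 3. Il2ra had 109, 98.6 and 99.4 CPM in KO, against 122, 196 and 65.0 CPM in WT, in the same order (CPM without TMM factors). With libraries scaled to pan-T genes, the kinase sum was 311, 324 and 273 RPKM in KO replicates 1 to 3, against 277, 246 and 320 RPKM in WT replicates 1 to 3. The groups then overlapped, with means of 303 ± 26.8 RPKM in KO and 281 ± 37.3 RPKM in WT (SD, n = 3 each; exact permutation p = 0.6), an alternative chosen after the data were seen. Most of the sum is Jak3 and Jak1. The 5 STAT genes summed to 304 ± 19.4 RPKM in KO and 320 ± 25.4 RPKM in WT, with overlapping groups (SD, n = 3 each; exact permutation p = 0.4). Within the kinase sum, Jak2 held 2.01%, 2.54% and 1.68% in KO replicates 1 to 3, against 2.92%, 4.39% and 3.46% in WT replicates 1 to 3. Jak2 was the one gene of the 9 whose share of its family did not overlap between the groups, 1.51 percentage points lower in KO. Its exact permutation p was 0.1, the smallest possible, and 0.72 after Benjamini-Hochberg adjustment over the 9 shares. Jak3 held 51.8% ± 0.888 of the kinase sum in KO and 45.4% ± 9.63 in WT, Jak1 35.1% ± 0.429 in KO and 40.5% ± 8.28 in WT, and Tyk2 11.0% ± 0.808 in KO and 10.5% ± 1.60 in WT (SD, n = 3 each). Within the STAT sum, Stat3 was the largest part, 36.8% ± 1.95 in KO and 37.4% ± 2.28 in WT. Stat6 made up 25.1% ± 2.24 in KO and 22.3% ± 3.86 in WT, Stat5b 18.1% ± 1.86 in KO and 18.5% ± 2.48 in WT, Stat5a 11.9% ± 1.82 in KO and 13.6% ± 0.528 in WT, and Stat4 8.10% ± 0.528 in KO and 8.19% ± 2.02 in WT (SD, n = 3 each). All 5 overlapped between the groups.

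Ratios within a library do not depend on the scaling between libraries. Tyk2 over Jak2, a ratio picked out after its values were seen, was 5.38, 4.67 and 6.10 in KO replicates 1 to 3, against 3.09, 2.77 and 2.96 in WT replicates 1 to 3, without overlap. It is given as a description. Jak1 over Jak3 was 0.668, 0.684 and 0.678 in KO replicates 1 to 3, against 0.563, 0.999 and 1.26 in WT replicates 1 to 3. The KO libraries kept a nearly constant ratio of these partner kinases, while the WT libraries lay on both sides of it. More broadly, 7 of the 9 genes had a smaller coefficient of variation in KO than in WT. The share of all tested genes with a smaller one in KO was not counted. Over all tested genes the KO libraries were more alike too. Their log2 CPM correlated pairwise at 0.954 to 0.963, against 0.874 to 0.894 between WT libraries. WT replicate 2 was the highest library for 4 of the 9 genes, Jak2, Stat4, Stat5a and Stat5b, and WT replicate 3 was the lowest for 3, Jak3, Tyk2 and Stat5b. As a share of all reads the 9 genes took 0.297%, 0.310% and 0.279% in KO replicates 1 to 3, against 0.253%, 0.266% and 0.198% in WT replicates 1 to 3, lowest where the Treg and pan-T markers were lowest.

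The transcript rows of single genes differed as well. The 9 genes had 16 rows, and 6 of them had several. The kept Jak3 row ends in a last exon that shares 404 bases, chr8:71690172-71690575 and noncoding in Jak3, with an exon of Insl3, the gene of a peptide hormone of the testis, on the same strand. The other Jak3 row ends elsewhere. The kept row held more reads than the other row, by 8.15%, 6.33% and 8.24% of its reads in KO replicates 1 to 3, against 5.33%, 5.05% and 5.05% in WT replicates 1 to 3. That surplus was larger in every KO library (exact permutation test, two-sided, p = 0.1, the smallest possible). Insl3, which is named for this overlap and was chosen after its values were seen, had 700, 644 and 1202 reads in KO replicates 1 to 3, against 299, 39 and 213 reads in WT replicates 1 to 3. Its log2 fold change was 1.07 (SE 0.27, adjusted p = 0.0966), and reads in the shared bases cannot be assigned to Jak3 or Insl3. On the other Jak3 row, the log2 fold change of Jak3 was 0.50 (adjusted p = 0.304), little below the 0.53 of the kept row.

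In Stat3, the row that lacks a 50-base coding segment at chr11:100889541-100889590 tells apart the full-length protein from the shorter beta form. The kept row held more reads than that row by 1.30%, 1.03% and 1.22% of its reads in KO replicates 1 to 3, against 1.56%, 1.86% and 1.09% in WT replicates 1 to 3, with overlap (exact permutation p = 0.3). The segment makes up 1.11% of the length. In Tyk2, a 69-base coding segment (chr9:21124141-21124209), 1.42% of the length, held 0.124% of the reads. In Stat5a, 282 bases that are 7.25% of the length held 0.765% of the reads. In both genes the share of reads was below the share of length. How the counting program treated reads that cross the edge of a segment is not given in the sources used here. Over all GENCODE transcripts of a gene, which reach beyond the counted rows, Stat4 shares 1033 of 3872 exonic bases with Gm28177, a noncoding gene on the same strand, and Tyk2 shares 554 of 6865 with the antisense gene 1700084C06Rik. Stat3 and Stat5a, on opposite strands, share 72 exonic bases with each other. Reads on shared bases of the same strand cannot be assigned, and with no strand setting given the same holds for pairs on opposite strands.

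Across the other scalings, tests and left-out libraries, Jak2, Jak3, Tyk2 and Stat5a held their direction and the other 5 genes did not. Jak3 was positive in all 18 alternatives, with log2 fold changes of 0.30 to 0.84, and Tyk2 in all 17, with 0.19 to 0.59. Jak2 was negative in all 17 (-0.65 to -0.21) and Stat5a in all 18, the sum with Stat5b included (-0.53 to -0.12). Jak1 lay at 0.12 to 0.23 in 16 alternatives and at -0.12 when libraries were scaled to equal sums of pan-T genes, a scaling that moved the median of all genes to -0.34, against -0.04. Since that scaling moves genes together, the place of Jak1 relative to the median is no separate check. The lowest adjusted p of any alternative was 0.0606 for Jak3 (edgeR without WT replicate 1) and 0.0697 for Tyk2 (DESeq2). When the share of lung epithelial markers was made a covariate, Jak3 had a log2 fold change of 0.78 (adjusted p = 0.432) and Tyk2 of 0.50 (adjusted p = 0.518).

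**Figure D4:**
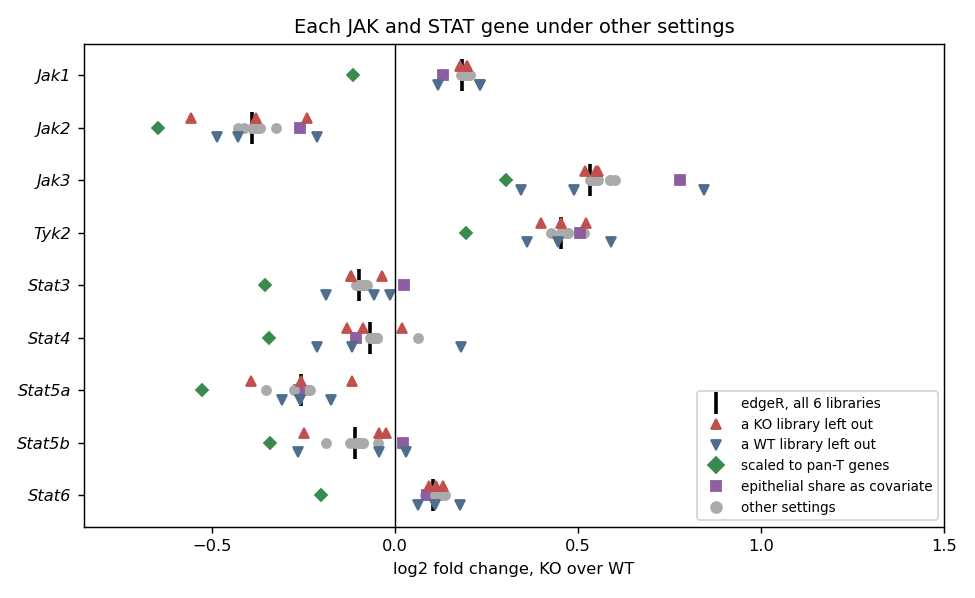
Log2 fold change of each gene, KO over WT, with all 6 libraries (black bar), with a KO or a WT library left out (triangles), scaled to pan-T genes (diamonds), with epithelial markers as covariate (squares) and under other settings (grey). Jak3 runs from 0.30 to 0.84 and Tyk2 from 0.19 to 0.59, right of 0 throughout, and Jak2 and Stat5a lie left of 0 throughout, while Stat3, Stat4 and Stat5b cross it, as do Jak1 and Stat6 when scaled to pan-T genes.

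The genes most like Tyk2 over the 6 libraries, by Pearson r of log2 CPM among 6824 tested genes with a mean of at least 20 CPM, were Fam107b (r = 0.994), Prr12 (0.991) and Ankrd46 (0.983). None of the 3 passed the test, with log2 fold changes of 0.37, 0.26 and 0.51. For Stat5a they were March5 (r = 0.993), Rps12 (0.990) and Sephs1 (0.985), with log2 fold changes of -0.30, -0.24 and -0.54 that also did not pass. With 6 libraries and 6824 candidates, high values of r are to be found for almost any pattern: 26 genes exceeded 0.95 for Tyk2 and 8 for Stat5a. The values are a description and the libraries share their group.

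In the 250 bases upstream of each promoter start (RefSeq, GRCm38), 0 of 12 promoters of the 9 genes held TTCNNNGAA or TTCNNNNGAA. These are the core motifs of STAT binding, which read the same on both strands. The windows of Stat5a and Stat5b lie inside the gene spans given above, as does a window of Stat4. Of all 32851 promoters, 7.02% held the first and 5.85% the second. That says only that these letters are not in these windows.

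Upstream of the kinases, 3 of the 24 cytokine receptor chains tested passed at an adjusted p under 0.05, 1 higher and 2 lower in KO, against 0.755% and 0.983% of all genes. This list, like the inhibitor and target lists below, was chosen with earlier results of these data known. Counts set beside the shares of all genes are therefore a description. Il7r, the partner chain of Crlf2 in the TSLP receptor, had 303, 261 and 319 CPM in KO replicates 1 to 3, against 105, 151 and 109 CPM in WT replicates 1 to 3, and rose by a log2 fold change of 1.29 (SE 0.17, adjusted p = 0.0162). Crlf2, 1 of the 2 lower, is the targeted gene. Its fall goes with the design, and its call says nothing about the other chains. Il6st, the gp130 chain through which IL-6 reaches JAK1 and STAT3, had 51.1, 62.4 and 41.7 CPM in KO replicates 1 to 3, against 144, 109 and 117 CPM in WT replicates 1 to 3, and fell with a log2 fold change of -1.26 (SE 0.19, adjusted p = 0.0246). The groups were well apart for all 3. At an unadjusted p under 0.05 there were 14 of 24, 7 in each direction, against 15.9% of all genes, and the median of the list was -0.27.

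Of the 17 inhibitors of JAKs and STATs, 2 fell and 0 rose, against 0.983% and 0.755% of all genes, with a median of -0.15. Socs1, a direct inhibitor of JAK kinases, had 169, 176 and 169 CPM in KO replicates 1 to 3, against 453, 389 and 277 CPM in WT replicates 1 to 3, a log2 fold change of -1.12 (SE 0.18, adjusted p = 0.0269). Socs3, which acts at gp130, had 227, 257 and 249 CPM in KO replicates 1 to 3, against 419, 326 and 424 CPM in WT replicates 1 to 3, a log2 fold change of -0.68 (SE 0.13, adjusted p = 0.0497). The call of Socs3 was lost in 12 of 17 alternatives, among them upper-quartile factors, pan-T scaling, no robust estimation and no filter. KO libraries were close together for both, below every WT library. The other 15, among them Cish and Socs2, did not pass.

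Genes that the STATs are known to switch on were counted by transducer. Of 15 listed STAT5 targets 0 passed by edgeR and 3 had an unadjusted p under 0.05, all lower in KO. Over all genes 15.9% had such a p, in either direction. DESeq2 and limma-voom each called 2 of the 15, and over all genes they called 863 and 357. The smallest p were those of Myc, 57.7 ± 7.79 CPM in KO and 113 ± 25.3 CPM in WT (log2 fold change -0.99, adjusted p = 0.0515), and of Lta, which encodes lymphotoxin alpha, 6.24 ± 1.43 CPM in KO and 18.7 ± 3.96 CPM in WT libraries (SD, n = 3 each; log2 fold change -1.57, adjusted p = 0.0647). Foxp3, the factor that defines Treg cells and a STAT5 target, averaged 434 ± 52.1 CPM in KO and 370.1 ± 148 CPM in WT with overlapping groups (adjusted p = 0.763 by edgeR). Of 11 STAT3 targets 3 fell and 0 rose, against 0.983% and 0.755% of all genes. With the replicate number as a block 0 were called, with pan-T scaling 1, and by DESeq2 4 fell and 1 rose. Besides Socs3 these were Bcl3, an atypical NF-kB inhibitor protein, 52.2 ± 2.25 CPM in KO and 92.9 ± 11.8 CPM in WT (adjusted p = 0.0406), and Bcl6, a transcriptional repressor that drives the follicular T cell fate, 19.2 ± 1.04 CPM in KO and 40.5 ± 4.38 CPM in WT (adjusted p = 0.0380). Of 8 STAT4 targets 1 fell and 0 rose, against 0.983% and 0.755% of all genes. The 1 was Furin, a protease, with 190.2 ± 36.4 CPM in KO and 346 ± 20.1 CPM in WT libraries (SD, n = 3 each, adjusted p = 0.0415 by edgeR). With the replicate block 0 were called. All 8 had negative log2 fold changes, with a median of -0.70, as had 54.2% of all genes. Without WT replicate 3, 6 of the 8 were negative and the median was -0.16, a value chosen after the data were seen. That library was the highest for Tbx21, Ifng, Hlx, Il18rap, Il12rb2, Furin and Map3k8, but not for Il18r1. All but Furin were named after their values were seen. It stood out in natural killer cell markers: Ncr1 had 34.4 CPM and Klrb1c 31.7 CPM there (CPM without TMM factors), and neither exceeded 2.08 CPM in any other library. Markers of other cell types stood out there as well. B cell markers took 0.0323% of its reads and at most 0.00303% in any other library. Neutrophil markers took 0.0392% and at most 0.00966%. What part such cells have in the signs of the list was not tested.

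Of 7 STAT6 targets tested, 2 rose and 0 fell by edgeR, against 0.755% and 0.983% of all genes, and Il24, the eighth, was not tested. Other settings also called targets lower in KO: DESeq2 and limma-voom with quality weights each called 3 higher and 2 lower, pan-T scaling 2 and 2, and limma-voom 2 and 1. Over all genes, DESeq2 called 367 higher and 496 lower, and limma-voom with quality weights 116 and 236. Pan-T scaling called 25 higher and 157 lower over all genes, and limma-voom 147 and 210. Without WT replicate 3 there were 3 higher and 2 lower, and with the replicate block 1 and 0. Ccr8, a chemokine receptor of tissue Treg cells, had 474, 291 and 521 CPM in KO replicates 1 to 3, against 110.3, 155 and 94.97 CPM in WT replicates 1 to 3, a log2 fold change of 1.85 (SE 0.26, adjusted p = 0.0196). Il10, an inhibitory cytokine, had 187, 193 and 220 CPM in KO replicates 1 to 3, against 42.9, 61.6 and 24.8 CPM in WT replicates 1 to 3, a log2 fold change of 2.27 (SE 0.29, adjusted p = 0.0160). The lowest KO library lay above the highest WT library for both. The median of the 7 was -0.15, and 0.77 without WT replicate 3. The lists share genes, Socs3 and Cish for instance, and many of their genes answer to other factors too. They were chosen with earlier results of these data known, so counts beside the shares of all genes are a description. These counts rest on all 6 libraries: leaving out WT replicate 1, KO replicate 1 or KO replicate 3, the receptors kept 1 call, Crlf2, and the inhibitors and all targets had 0. Without WT replicate 2 the receptors had 2 and the STAT6 targets 1, and without KO replicate 2 they had 3 and 2, with 0 in the other lists under either. Without WT replicate 3 the receptors had 7, the inhibitors 3, and the targets of STAT5, STAT3, STAT4 and STAT6 1, 4, 1 and 5. Of the fits with a library left out, that one also called the most genes over all genes tested.

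**Figure D5:**
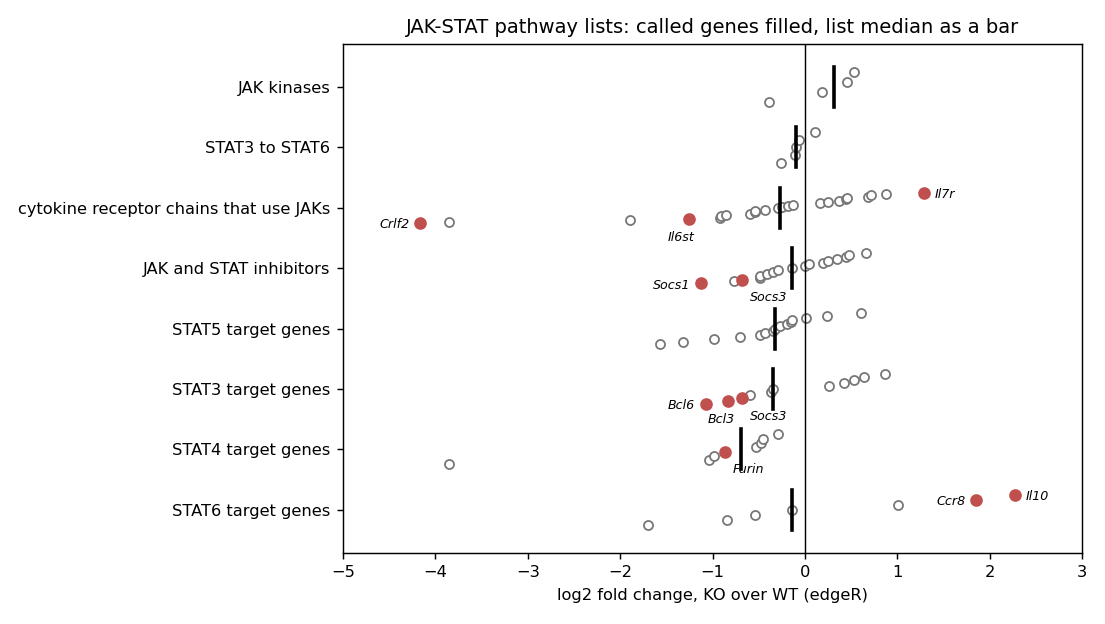
Log2 fold change of each tested gene, KO over WT, in the kinase, STAT, receptor, inhibitor and target lists, with called genes filled and named and the list median as a black bar. The kinases and STAT genes hold no called gene and lie between -0.39 and 0.53, while called receptors, inhibitors and targets run from -4.16 for Crlf2 to 2.27 for Il10.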

How the data were processed

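RNA from sorted Treg cells was sequenced in 6 libraries, 3 KO and 3 WT, grouped by title and genotype tag. The deposited table gives, per the file headers, a count of reads for each RefSeq transcript and the transcript's length. Bowtie2 2.2.6, TopHat2 2.2.1 and build mm10 were used, per the submitters' processing notes. Not given in the sources used here is what counted the reads, with which strand setting, and how reads that fit several places were treated.

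The 31682 rows were reduced to the row of highest total for each of 23992 symbols. After filterByExpr (minimum count 10, minimum total 15), KO was compared with WT over 12720 genes with edgeR 4.0.16 in R 4.3.3 (quasi-likelihood F-test, TMM factors, robust estimation), with Benjamini-Hochberg adjustment. A gene was called below an adjusted p of 0.05. The SE of a log2 fold change is its size over the root of F. CPM and RPKM use the TMM-scaled library sizes, and log2 CPM uses a prior count of 2. Sums, shares and ratios were compared by exact permutation tests. The fit was tested on 10 simulated data sets with 200 changed genes drawn from all tested genes. It called 21% of the 2-fold and 65.3% of the 4-fold changes in the right direction. Unchanged genes made up 9.06% of its calls. Most 2-fold changes were thus missed, and recovery was not computed for the 9 genes alone. Sequences come from GENCODE transcripts and RefSeq promoters of GRCm38. Totals ran from 1439736 to 18352401 reads, and intervals and floors cover counting error only.

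Alternatives were other scalings, DESeq2 1.42.0, limma-voom (limma 3.58.1), filters, rows, an epithelial covariate, a replicate block and leaving out each library. The other Jak3 row, the sum of Stat5a and Stat5b, the kinase sum scaled to pan-T genes and the list medians without a library were added after the data were seen. The 9 genes, the pathway lists and the markers were chosen with earlier results of these data known. Named from each list were up to 4 called genes of smallest p in each direction, or up to 2 where none was called. The genes named as most alike follow the JAK and the STAT of smallest p.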

Additional observations from a re-analysis of the deposited data

How the results depend on the processing

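None of the 9 genes was called in any of the 17 alternatives. Directions reversed for Jak1 (-0.12) and Stat6 (-0.20) with libraries scaled to pan-T genes, for Stat4 with limma-voom (0.062), without KO replicate 3 (0.02) and without WT replicate 2 (0.18), for Stat3 (0.024) and Stat5b (0.023) with the epithelial covariate, and for Stat5b without WT replicate 2 (0.031). With a library left out, Stat4 ran from -0.21 to 0.18 and Stat5b from -0.27 to 0.031. The cause was not tested. Over all genes, 221 were called, against 863 by DESeq2, 357 by limma-voom, 352 with quality weights, 0 with the epithelial covariate (1131 at an unadjusted p under 0.05), and 4 (without KO replicate 1) to 518 (without WT replicate 3) with a library left out. With the replicate number as a block, 123 genes and 0 of the 9 were called. The labels do not say that the numbers pair the libraries. Deviations of same-numbered libraries from their group means correlated at 0.08, -0.15 and -0.04, and not every library correlated best with its own number. Such correlations, in libraries whose marker sums differ, cannot decide whether animals or days were shared. The shallow WT replicate 2 limits Jak2 and Stat4 most, with 83 and 151 reads.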
